A study of Drosophila melanogaster with 2 samples.

Results

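Small nucleolar RNA (snoRNA) genes and the genes that host them were located relative to peaks of Su(var)2-10-GFP in Drosophila melanogaster embryos. The annotation held 269 genes of biotype snoRNA on the arms X, 2L, 2R, 3L, 3R and 4, of 18164 annotated genes there once transposable elements were left out. All 269 were taken, whatever their binding. Each was assigned to the gene on its own strand that encloses it, or, with no such gene, to a cluster of unhosted snoRNA genes less than 1000 bp apart on that strand. This gave 109 units, each counted once, which were 82 protein-coding hosts with 192 snoRNA genes, 10 non-coding hosts with 55, and 17 units without a host with 22.

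The embryos were collected whole at 0 to 24 h, with males and females together, from a transgenic line in which Su(var)2-10 carries GFP fused to its C-terminus, and chromatin was precipitated with an antibody to GFP. There was 1 group with 2 biological replicates, labelled 2 and 3, and no second genotype or treatment, so binding at snoRNA genes and hosts was set beside binding at other genes of the same lists. Every embryo carried the tagged protein, and all tissues and stages of embryogenesis were mixed. The deposited data are peak lists on build dm6 with a signal score per peak that is the authors' own and has no fixed unit. The list that passed the authors' reproducibility (IDR) threshold held 2942 peaks, called reproducible below, with scores of 129 to 2409 and a median of 195. The pooled list and the list of each replicate held 30000 candidate peaks each, most of them background. The reproducible peaks were the 2942 pooled peaks of highest score. A share of candidates that were reproducible is therefore a share above a score limit, and does not measure agreement between replicates. Read totals were not used here, so the depth is unknown, and intervals given with shares are 95% Wilson intervals that cover counting error only. Those over snoRNA genes also treat genes of the same host as independent, which they are not, so they are too narrow. Neither input signal nor RNA levels were analysed here.

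Small nucleolar RNAs guide chemical changes of other RNAs inside protein particles. Box C/D RNAs carry a C box and a D box and direct methylation of the ribose of a target base, while box H/ACA RNAs end in an ACA box and direct conversion of uridine to pseudouridine. Most targets are ribosomal RNA, and the related scaRNAs act on spliceosomal RNAs in Cajal bodies. In flies most of these RNAs are cut from introns of a host transcript after splicing, so that their supply depends on the promoter of the host. Hosts include ribosomal protein genes, other housekeeping genes and the Uhg genes, whose spliced transcripts have no known protein product. The protein Su(var)2-10 belongs to the PIAS family of SUMO E3 ligases and helps attach the small protein SUMO to chromatin proteins and other substrates.

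By their annotated names 119 of the snoRNA genes were box C/D, 120 were box H/ACA and 30 had a name of neither kind, with 16 scaRNA genes among all. Their length ran from 46 to 316 bp with a median of 134 bp, and 243 lay wholly in an intron of a host transcript. Sequence and name went together. An ACA triplet 3 bases from the annotated 3′ end was present in 110 of 120 H/ACA genes and in 2 of 119 C/D genes. Of the 119 C/D genes, 82 held TGATGA within the first 20 bases, 112 held CTGA near the 3′ end and 81 held both, against 0 of 120 H/ACA genes with both. Copies of 1 guide often sat side by side in the same host: 35 families had at least 2 copies in 1 host and took in 112 genes.

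The copies below are shown because their hosts return in the results, Arpc2 as the host with the most snoRNA genes, Stt3A as the one with the highest peak, and RpL28 and Uhg8 as a ribosomal and a non-coding host with a peak. They are RefSeq Release 6 sequence (dm6), given 5′ to 3′ on the RNA strand, and capitals mark the ACA box, or the C box (TGATGA) and the D box (CTGA).
snoRNA:Psi18S-525i: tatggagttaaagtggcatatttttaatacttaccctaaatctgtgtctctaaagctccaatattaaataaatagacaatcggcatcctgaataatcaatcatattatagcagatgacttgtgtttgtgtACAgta
snoRNA:Psi18S-525j: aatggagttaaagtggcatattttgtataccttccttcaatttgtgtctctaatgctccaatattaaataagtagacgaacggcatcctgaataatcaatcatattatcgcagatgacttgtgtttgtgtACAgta
snoRNA:Me28S-U3344a: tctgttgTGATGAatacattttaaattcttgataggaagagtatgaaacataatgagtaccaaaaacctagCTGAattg
snoRNA:Me28S-U3344b: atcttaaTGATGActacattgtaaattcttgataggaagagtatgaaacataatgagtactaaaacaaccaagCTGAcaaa
snoRNA:Or-CD11a: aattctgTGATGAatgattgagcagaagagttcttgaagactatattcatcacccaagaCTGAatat
snoRNA:Me18S-U1356a: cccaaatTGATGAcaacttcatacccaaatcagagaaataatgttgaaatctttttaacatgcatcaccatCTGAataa
snoRNA:Me18S-U1356b: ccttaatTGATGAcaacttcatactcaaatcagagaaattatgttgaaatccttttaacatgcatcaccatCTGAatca
The first pair lies in Arpc2, at chr2L:20421617-20421752 and chr2L:20421928-20422063 on the plus strand, and is the most alike of 10 copies there, with 90.4% identity against a lowest value of 65.0%. The second pair lies in Stt3A, at chrX:21052283-21052361 and chrX:21050898-21050978 on the minus strand, with 82.9% identity. The single sequence lies in RpL28 at chr3L:3222475-3222541 on the minus strand. The last pair lies in Uhg8, at chr3L:20454007-20454085 and chr3L:20454246-20454324 on the plus strand, with 92.4% identity. Among all 269 genes 4 had an exactly identical copy, so a read that lies wholly within such a gene matches both copies.

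Summits, the points of highest signal in each peak, were rare at the snoRNA genes themselves. The gene body had a reproducible summit within 250 bp for 2 of 269 snoRNA genes (0.743%, interval 0.204 to 2.67%), against 12.4% of the 17895 other annotated genes. Most other genes are far longer, and the other short non-coding classes had shares as low, with 1.38% of 290 tRNA genes and 2 of 260 micro RNA genes. They were 1 of 119 C/D genes and 1 of 120 H/ACA genes. In the best 2942 peaks of a single replicate the count was 1 for replicate 2 and 3 for replicate 3, against 11.9% and 12.6% of other annotated genes.

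The first of those genes was snoRNA:Me28S-A1322, a C/D gene in an intron of eEF1alpha1, the translation elongation factor gene. A reproducible summit with a score of 146 lay inside the snoRNA gene, 404 bp upstream of the nearest of 4 annotated start sites of the host. The nearest host start upstream of the snoRNA gene was 1001 bp from it. In the replicates the nearest summits lay 24 bp away with a score of 32.0 in replicate 2, at rank 10514, and inside the gene with a score of 82.2 in replicate 3, at rank 2293. The peak was thus among the best 2942 of replicate 3 and far down the list of replicate 2. The second was snoRNA:Psi28S-2949, the first H/ACA gene of the non-coding host Uhg4, 99 bp from its start site. Its summit, with a score of 209, lay 194 bp from the snoRNA gene and 95 bp from the Uhg4 start, so this summit was nearer to the start than to the snoRNA gene.

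At the wider distance of 1000 bp, 32 of 269 snoRNA genes in 24 units had a reproducible summit (11.9%, interval 8.55 to 16.3%), against 16.1% of other annotated genes and 2.76% of tRNA genes. Of these 32 genes, 29 had a host and 3 lay in an unhosted cluster named here after its member snoRNA:Or-ACA7. For 28 of the 29 the summit was also within 1000 bp of a start site of the host, and for 22 it was within 250 bp of one. Among hosted genes the share followed the place of the snoRNA gene along the host. It was 10 of 33 for genes up to 500 bp from the host start, 14 of 51 for those at 501 to 1000 bp, 2 of 73 for those at 1001 to 2000 bp and 3 of 90 for those further in. Of the introns, 4 of 170 host introns that hold a snoRNA gene contained a reproducible summit (2.35%), against 8 of 421 introns of the same hosts that hold none (1.90%). The introns with a snoRNA had a median length of 236 bp and the others 98 bp, so the comparison is not matched for length.

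Candidate peaks of the pooled list were less rare at snoRNA genes. A candidate summit lay within 250 bp of 60 of the 269 (22.3%), against 46.3% of other annotated genes and 14.1% of tRNA genes, and within 1000 bp of 161, against 59.7% of other annotated genes. Of the 46 distinct candidates within 250 bp of a snoRNA gene, 2 were reproducible (4.35%, interval 1.20 to 14.5%), against 9.81% of all 30000 candidates.

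**Figure D1:**
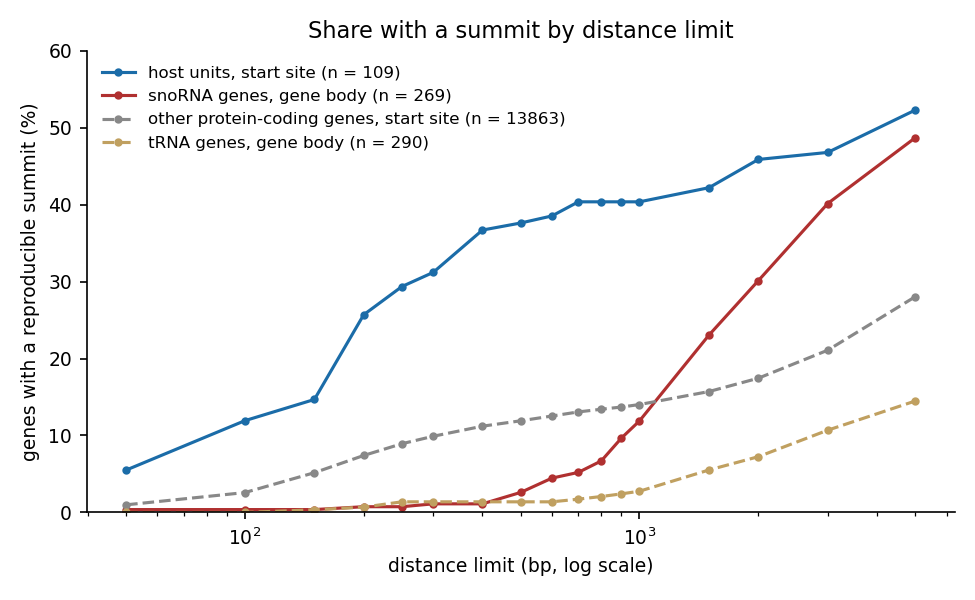
Share of genes with a reproducible summit (vertical axis, percent) within a rising distance limit (horizontal axis, bp, log scale), for start sites of the 109 host units, bodies of the 269 snoRNA genes, start sites of the 13863 other protein-coding genes and bodies of the 290 tRNA genes. At 250 bp host starts stand at 29.4% and other protein-coding starts at 8.93%, while snoRNA bodies stay at 0.743% and overtake other protein-coding starts only beyond 1000 bp.

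The start sites of the hosts gave another picture. Of the 109 units, 32 had a reproducible summit within 250 bp of an annotated start site (29.4%, interval 21.6 to 38.5%), against 8.93% of the 13863 protein-coding genes that host no snoRNA. Within 1000 bp the counts were 44 of 109 (40.4%, interval 31.6 to 49.8%) against 14.0%. These 32 units hosted 79 snoRNA genes, 77 of which were more than 250 bp from any reproducible summit. In the pooled list 60 units had a candidate within 250 bp, against 25.1% of other protein-coding genes, and 82 had one within 1000 bp, against 48.7%. In replicate 2 the counts were 50 units, against 22.5%, and 78 units, against 47.7%. In replicate 3 they were 69 units, against 28.2%, and 93 units, against 51.2%. The share was above that of other genes in all 4 lists and at both distances.

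Hosts often have several annotated start sites, and more sites give more chances of a match. Among hosts with 1 start site 16 of 47 had a reproducible summit within 250 bp (34.0%), against 6.33% of other protein-coding genes with 1 site. Among hosts with 2 or more sites 16 of 45 had one (35.6%), against 16.2% of other protein-coding genes with 2 or more. Taking candidates as given, 36 of the 85 pooled candidates within 250 bp of a unit's start were reproducible (42.4%, interval 32.4 to 53.0%), against 27.4% at other protein-coding starts. Within 1000 bp it was 63 of 184 (34.2%, interval 27.8 to 41.4%), against 18.0%. These shares count candidates whose pooled score passed the limit of the reproducible list.

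Class and number of guests were compared next. The share within 250 bp was 15 of 46 for units with C/D genes only, 12 of 36 for units with H/ACA genes only, 2 of 7 for units with both and 3 of 20 for units with neither name. Units with 1 snoRNA gene had a summit within 250 bp in 19 of 70 cases, those with 2 or 3 in 7 of 18, and those with 4 or more in 6 of 21. All of these intervals overlapped.

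**Figure D2:**
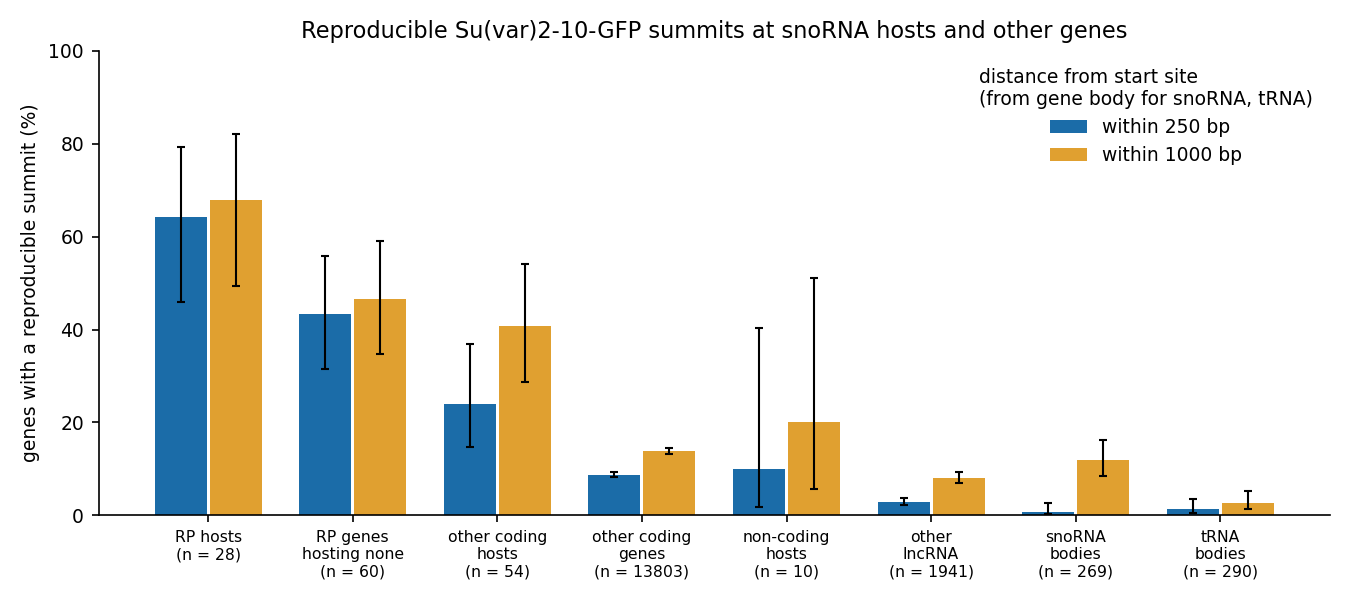
Share of genes with a reproducible summit within 250 bp (blue) and 1000 bp (orange) of a start site, or of the gene body for snoRNA and tRNA genes (vertical axis, percent), with each class of host left of the genes it is set beside. Bars are shares, error bars 95% Wilson intervals, and RP stands for ribosomal protein. Ribosomal protein hosts reach 64.3% within 250 bp and ribosomal protein genes that host none 43.3%, and snoRNA bodies 0.743%.

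Ribosomal protein genes made up 28 of the hosts and held 71 snoRNA genes. Of these, 18 had a reproducible summit within 250 bp of a start site (64.3%, interval 45.8 to 79.3%), against 43.3% of the 60 ribosomal protein genes that host none. Within 1000 bp it was 19 of 28, against 46.7%. The intervals of the hosts and of the non-hosts (31.6 to 55.9% within 250 bp) overlap. In the best 2942 peaks of each replicate the ribosomal hosts had 18 and 15 hits within 250 bp in replicates 2 and 3, against 25 and 23 of the 60 others. Once a candidate was present, the share that was reproducible was 18 of 29 at the ribosomal hosts (62.1%), against 29 of 49 at ribosomal protein genes that host none (59.2%).

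The highest peak of a ribosomal host was that of RpL28, a large-subunit protein gene with 5 C/D guests. Its score was 297, at position −195 from the start site (negative positions are upstream), and the matching peaks scored 149 at rank 658 in replicate 2 and 147 at rank 683 in replicate 3. RpS3A followed with 285 at position −167, and with 160 in replicate 2 and 116 in replicate 3. RpL14 had a peak of 254 at position −57, with 135 and 116 in replicates 2 and 3. RpL13A had a peak of 244 at position −167, with 99.0 and 137 in replicates 2 and 3. Both replicates had a summit within 100 bp of each of these peaks. RpS7, the small-subunit gene with 7 H/ACA guests, scored 188 at position −143, and RpS16, with 5 guests, scored 233 at position −127. RpL17, with 4 guests, scored 159 at position −47.

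Not every ribosomal host had a peak. RpS5a, with 14 H/ACA genes the ribosomal host with the most guests, had its nearest reproducible summit 16959 bp away, although candidates lay 247 bp from its start with a score of 87.8 in replicate 2, at rank 1696, and 89 bp from it with a score of 27.9 in replicate 3, at rank 17518. Of these candidates, that of replicate 2 ranked within the best 2942 of its list and that of replicate 3 did not. RpL3, with 4 guests, had no reproducible summit within 1000 bp either, and its candidates ranked 7651 and 9375 in replicates 2 and 3.

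Among the 54 other protein-coding hosts, 13 had a reproducible summit within 250 bp of a start site (24.1%, interval 14.6 to 37.0%), against 8.78% of the 13803 protein-coding genes that are neither hosts nor ribosomal. Within 1000 bp it was 22 of 54 (40.7%, interval 28.7 to 54.0%), against 13.9%. The class thus had a lower share than the ribosomal hosts but held the highest peaks of all units. Without the ribosomal hosts, 14 of 81 units (17.3%) had a summit within 250 bp and 25 of 81 (30.9%) within 1000 bp.

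The highest peak at any unit was that of Stt3A, the gene of a catalytic subunit of oligosaccharyltransferase and the host of the U3344 pair shown above. It scored 613 at position −399, with 289 at rank 152 in replicate 2 and 320 at rank 82 in replicate 3. Its summit was nearer to a start site of bves, 210 bp away, and another start site of bves lies 26 bp from that of Stt3A on the opposite strand. CG1142, host of the scaRNA gene MeU5-C46, came next with 522 at position −184, and with 263 at rank 189 and 259 at rank 161 in replicates 2 and 3. No opposite-strand start lay within 500 bp of the CG1142 start.

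Msp300, which encodes a giant protein of the nuclear envelope, had a peak of 480 at position −409, with 265 and 217 in replicates 2 and 3. The BTB zinc-finger gene lola, with 4 guests, had one of 478 at position −305, with 245 and 248 in replicates 2 and 3. The chromatin protein gene tou had one of 462 at position −610, with 251 and 221 in replicates 2 and 3. All 3 peaks ranked between 183 and 257 in both replicates. SC35, which encodes a splicing factor of the SR family, had a peak of 407 at position 299, only 86 bp from the start of the neighbouring eRF3. Next were drn with 398 at position −145 and CG12316 with 353 at position 70. Below them came nop5, which encodes a core protein of the C/D particle, with 295 at position −311, Irbp, the fly Ku70 gene, with 262 at position −152, and gcl with 247 at position −176.

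Non-coding hosts mostly lacked a reproducible peak. Of the 10, 1 had a summit within 250 bp of a start site (interval 1.79 to 40.4%), against 2.89% of 1941 other lncRNA genes, and 2 had one within 1000 bp, against 8.09%. Uhg4, with 7 guests, was the first of these, with a peak of 209 at position −95 that scored 115 at rank 1048 in replicate 2 and 91.9 at rank 1851 in replicate 3. Uhg8 was the second, with a peak of 191 at position −261 that scored 120 and 89.4 in replicates 2 and 3, and whose summit lay nearer to CG5199, at 168 bp. Uhg1, with 16 C/D genes the non-coding host with the most guests, had its nearest reproducible summit 33490 bp away. Its nearest candidates scored 47.4 at rank 4866 in replicate 2 and 74.1 at rank 2781 in replicate 3, so the second was among the best 2942 of its list, although 453 bp from the start. Uhg5 (11 guests), lncRNA:CR45184 (5), Uhg2 (4) and Uhg7 (4) had no reproducible summit within 1000 bp.

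Of the 17 units without a host, 0 had a summit within 250 bp of the upstream end of their first snoRNA gene (interval up to 18.4%). The shares of other protein-coding genes (8.93%) and of other lncRNA genes (2.89%) both lie inside this interval. With only 17 units, a count of 0 therefore cannot be told apart from either share. Within 1000 bp 1 of the 17 units had a summit, against 14.0% of other protein-coding genes and 8.09% of other lncRNA genes. This unit was the Or-ACA7 cluster of 4 genes on the minus strand, whose first gene is snoRNA:Or-CD13 and whose last is snoRNA:Or-ACA7. Its summit, with a score of 161, lay 480 bp inside the cluster from its upstream end. The matching peaks scored 94.4 at rank 1485 and 62.8 at rank 3759 in replicates 2 and 3.

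The 21 units with 4 or more snoRNA genes held 157 of the 269. Of these units, 9 had a reproducible summit within 1000 bp of a start (42.9%, interval 24.5 to 63.5%), close to the 40.4% of all units and above the 14.0% of other protein-coding genes, and 12 had none. Besides those named above, the 12 were dom, which encodes a SWR1-type remodelling ATPase, with 15 guests, kra with 8, Nop60B, the pseudouridine synthase gene of the H/ACA particle, with 7, CG10576 with 5 and the splicing factor gene Sf3b3 with 4. The 9 with a summit were RpL28, RpS7, RpS16, RpL17, lola, Uhg4, the Or-ACA7 cluster, Arpc2 and Hrb98DE. Arpc2, a subunit gene of the actin-nucleating Arp2/3 complex with 17 H/ACA guests, had a summit 17 bp from a start with a score of 136 and a higher one of 155 at position −216. That higher summit lay 73 bp from the start of CG10949 on the opposite strand. Hrb98DE, an hnRNP gene with 7 guests, had a peak of 139 at position −361, the lowest of the 44.

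The 44 highest peaks, 1 per unit, scored 139 to 613 with a median of 204, and 26 exceeded the median of the whole reproducible list. In 15 units the highest was picked from at least 2 summits within 1000 bp, so these scores are not like for like with the list. The nearest summits of the 32 units within 250 bp had a median score of 185, below the 195 of the list. Within 250 bp the units' nearest summits lay upstream of the start in 28 of 32 cases, with a median position of −147 and quartiles of −177 and −49.25. Other protein-coding genes had 88.9% upstream and a median of −136. Summits thus lay mostly upstream at both, at like distances. In eEF1alpha1 a summit lay at position −50, besides the one inside its snoRNA gene.

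**Figure D3:**
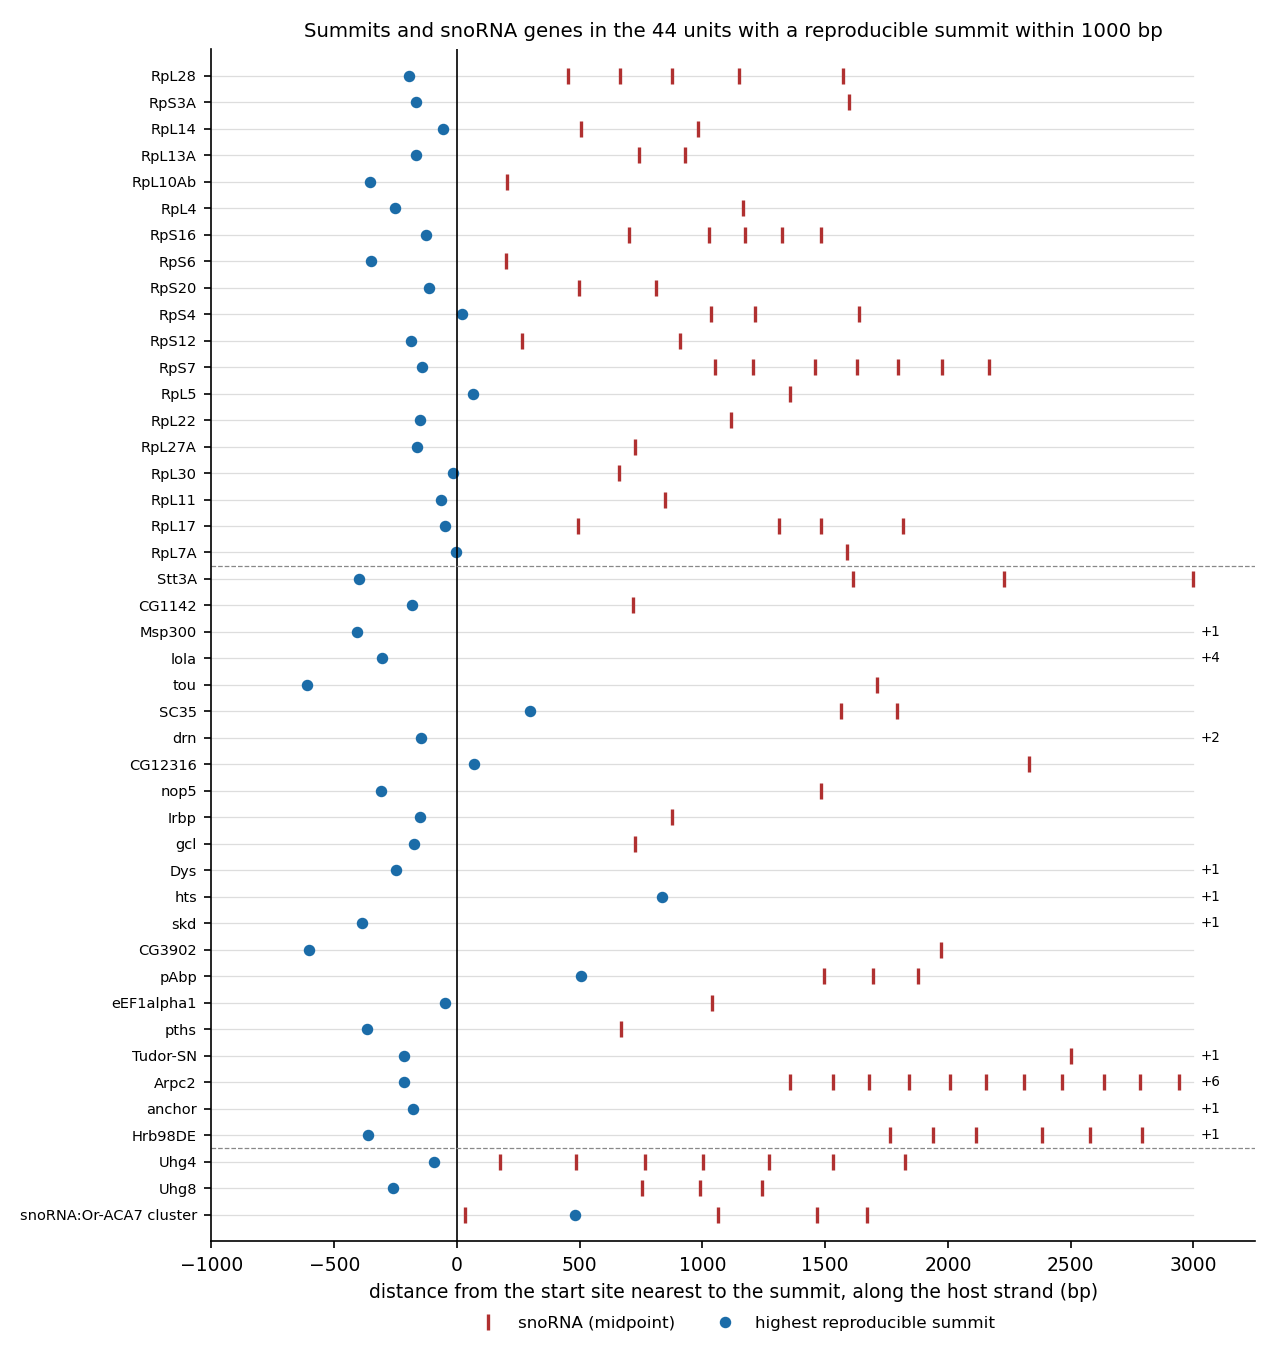
Position of the highest reproducible summit (blue points) and of snoRNA gene midpoints (red bars) along each of the 44 units with a summit within 1000 bp, relative to the start site nearest to the summit (horizontal axis, bp, negative upstream). Dashed lines part ribosomal protein hosts (top), other protein-coding hosts (middle) and non-coding hosts with the 1 cluster (bottom), and numbers at the right give snoRNA genes outside the range drawn. Of these summits the one in the Or-ACA7 cluster, at 480 bp, lies between snoRNA genes, and most others lie at or upstream of the start.

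The sequence under the summits of 5 hosts is shown as examples of the upstream sites. Each is a window of 201 bases centred on the summit, without any annotated exon base, from RefSeq Release 6 (dm6), 5′ to 3′ on the strand of the host. Of 4 motifs searched on both strands, TATCGATA (the DRE of DREF), CACGTG (the E-box), GGTCACACT (motif 1) and GAGAG (the GAGA element), these windows hold none, so no base is in capitals.
CG1142: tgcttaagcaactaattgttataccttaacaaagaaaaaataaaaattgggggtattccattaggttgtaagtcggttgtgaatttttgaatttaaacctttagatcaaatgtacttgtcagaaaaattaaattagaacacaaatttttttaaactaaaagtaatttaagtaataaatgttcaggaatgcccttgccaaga
RpL28: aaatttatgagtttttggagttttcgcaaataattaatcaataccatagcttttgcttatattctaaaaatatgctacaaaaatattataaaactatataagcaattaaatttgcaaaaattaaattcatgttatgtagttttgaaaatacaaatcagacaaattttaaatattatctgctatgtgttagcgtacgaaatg
RpS3A: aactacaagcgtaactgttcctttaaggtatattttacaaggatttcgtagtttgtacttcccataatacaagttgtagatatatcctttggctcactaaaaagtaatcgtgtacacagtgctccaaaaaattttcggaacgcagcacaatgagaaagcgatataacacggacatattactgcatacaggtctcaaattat
RpS7: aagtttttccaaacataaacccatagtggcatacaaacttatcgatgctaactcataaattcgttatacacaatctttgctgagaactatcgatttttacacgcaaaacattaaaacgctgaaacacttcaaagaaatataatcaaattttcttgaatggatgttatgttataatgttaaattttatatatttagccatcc
Uhg8: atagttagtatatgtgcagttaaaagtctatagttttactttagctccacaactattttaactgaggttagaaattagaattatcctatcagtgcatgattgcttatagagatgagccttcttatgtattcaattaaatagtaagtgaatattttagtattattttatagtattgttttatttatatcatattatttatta
The windows lie at chr3R:7473865-7474065 on the minus strand for CG1142, chr3L:3223055-3223255 on the minus strand for RpL28, chr4:67274-67474 on the minus strand for RpS3A, chr3R:30209063-30209263 on the minus strand for RpS7, and chr3L:20452932-20453132 on the plus strand for Uhg8. All are rich in A and T. Over the 44 highest host peaks the median GC content of the window was 33.1%, against 33.3% for all 2942 reproducible peaks and 38.8% for pooled candidates that were not reproducible. The ribosomal hosts had a median of 36.3% and the other units 31.8%.

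Exact motif matches were few under the host summits. GAGAG was found in 4 of 44 windows (9.09%, interval 3.59 to 21.2%), against 23.2% of all reproducible peaks. The other 3 motifs were found in 1 or 2 of the 44, against 2.11% of all reproducible peaks for the DRE, 1.84% for the E-box and 0.578% for motif 1. In promoters, taken as 250 bases before to 50 after the most upstream start, the DRE was present at 8 of 28 ribosomal hosts (28.6%, interval 15.3 to 47.1%) and 10 of 64 other hosts (15.6%), against 9.36% of all 13945 protein-coding genes. The E-box was present at 9 of 64 other hosts (14.1%, interval 7.58 to 24.6%) and 1 of 28 ribosomal hosts, against 4.20% of all protein-coding genes. Motif 1 was present at 3 of 28 and 5 of 64, against 6.05%. GAGAG was present at 5 of 28 ribosomal hosts (17.9%) and 21 of 64 other hosts (32.8%), against 29.7% of all protein-coding genes. A CTTT with its C within 2 bases of the start, a match to the TCT initiator typical of ribosomal protein genes, was found at 3 of 28 and 3 of 64, against 2.20%. Between hosts with a summit within 250 bp and hosts without one, the DRE was present at 7 of 32 and 11 of 60, the E-box at 2 of 32 and 8 of 60, motif 1 at 3 of 32 and 5 of 60, GAGAG at 10 of 32 and 16 of 60, and the TCT match at 4 of 32 and 2 of 60. The intervals overlap for each of these motifs. The summit could lie at any start of a host, and only 28 units had one within 250 bp of the most upstream start. For some hosts the motifs were therefore searched at another start than that with the summit. An exact match describes these letters only.

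The replicates placed the host peaks alike. For 40 of the 44 highest peaks both candidate lists held a summit no more than 100 bp away. In the best 2942 peaks of replicate 2, 29 units (26.6%) had a summit within 250 bp of a start, against 8.24% of other protein-coding genes. In those of replicate 3 it was 34 units (31.2%), against 9.25%, and 22 units had one in both. All but 1 of these 22 were among the 32 units of the reproducible list. The reproducible list was made from these same replicates, so this is a description of where the score comes from and not a further check. The 4 of the 44 peaks without a summit that near in both lists were those of Arpc2, pths, Uhg8 and Tudor-SN. In Arpc2, pths and Uhg8 the replicate 2 summit was within 100 bp and the replicate 3 summit lay 213, 175 and 158 bp away. Tudor-SN, which encodes a staphylococcal-nuclease protein of RNA granules, scored 96.4 at rank 1690 in replicate 3 and had no candidate nearer than 4543 bp in replicate 2. Some peaks with a summit within 100 bp in both lists were unequal in rank. RpL30 scored 41.4 at rank 6190 in replicate 2 and 119 at rank 1089 in replicate 3, and RpL11 scored 35.3 at rank 8561 in replicate 2 and 115 at rank 1162 in replicate 3. The genes pths, RpL30 and RpL11 were chosen after their values were seen.

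**Figure D4:**
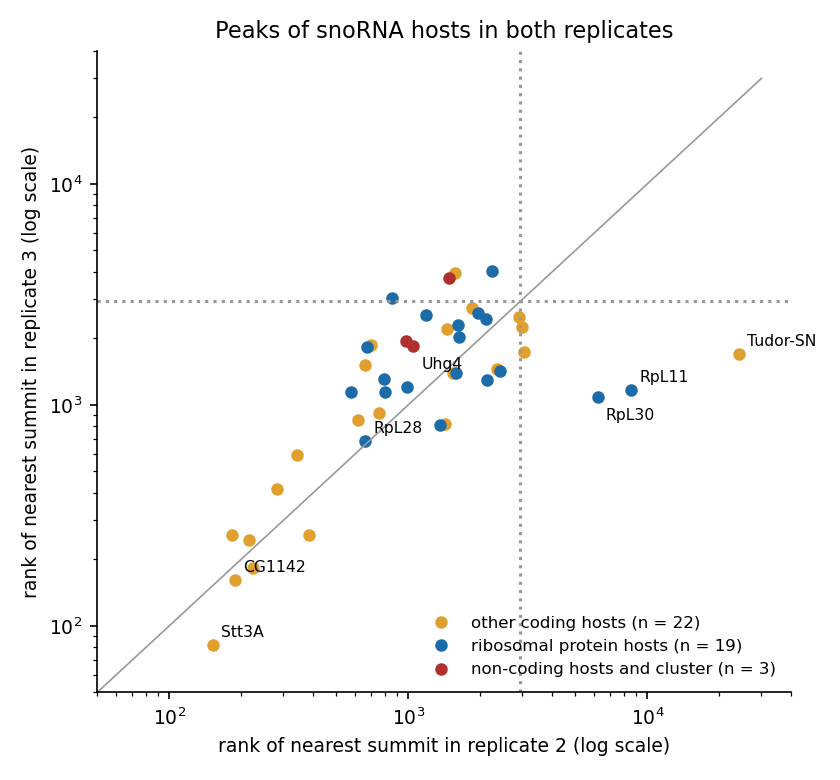
Rank of the nearest summit in replicate 2 (horizontal axis) and in replicate 3 (vertical axis) to the highest reproducible peak of each of 44 units, both on log scales, where 1 is the highest score. The diagonal marks equal ranks and dotted lines mark rank 2942. Stt3A, at lower left, ranks highest of the 44 in both lists, and Tudor-SN, RpL11 and RpL30 lie far right of the dotted line, low in the list of replicate 2 only.

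Fly genes are densely packed, and a summit near a host start can belong to a neighbour. In 17 of the 44 units the start of another gene on the opposite strand lay within 500 bp of the host start. In 15 the summit was nearer to the start of another gene than to the host's, RpL28 among them with eIF1 at 186 bp and Irbp with mgr at 20 bp. Peak lists give no direction, so binding at such a shared region cannot be assigned to either gene.

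Distance limits decide some members. Just inside 250 bp were Msp300 at 208 bp, Tudor-SN at 217 bp and Dys at 247 bp, and just outside were Uhg8 at 261 bp, SC35 at 299 bp and lola at 305 bp. Just inside 1000 bp were pAbp at 504 bp, CG3902 at 603 bp and tou at 610 bp. Just outside were mask at 1162 bp, lncRNA:CR42491 at 1471 bp and Uhg7 at 1504 bp.

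A list of 43 names of genes for snoRNA particles and the nucleolus was looked up, of which 38 matched the annotation. Besides core, assembly, and intron release and trimming factors, the 38 include 7 rRNA transcription genes, 6 nucleolus and Cajal body genes and 4 U3 processome genes. The shares are thus not those of snoRNA particle genes alone. Of these, 6 had a reproducible summit within 250 bp of a start (15.8%, interval 7.44 to 30.4%), against 8.93% of other protein-coding genes, which lies inside the interval. Within 1000 bp 10 had one (26.3%, interval 14.97 to 42.0%), against 14.0% of other protein-coding genes, which lies just below the interval. The list was written with earlier results of these data known, so no conclusion is drawn from these shares. It also includes 3 hosts, while the other protein-coding genes include none. Of 6 assembly factors 4 had a summit within 250 bp. These were Pih1D1 with a score of 356 at position −122, pont with 316 at −142, rept with 203 at −68, and Hsp83, the fly Hsp90, with 262 at position 76. Pih1D1, pont and rept encode parts of the R2TP complex, which works with Hsp90 in loading core proteins onto the RNA. In the replicates Pih1D1 scored 176 and 182, pont 175 and 66.9, rept 57.3 and 89.8, and Hsp83 154 and 105, each given for replicate 2 and then replicate 3.

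The other 2 with a summit were Rrp6, a nuclear exosome nuclease gene, with 217 at position −33, and TAF1C-like, a gene of the RNA polymerase I machinery, with 214 at −73. Of the 4 core proteins of the C/D particle and the 4 of the H/ACA particle, 0 had a summit within 250 bp. Of these, 3 are themselves hosts (Fib, nop5 and Nop60B). With only 4 genes in each set, a count of 0 cannot be told apart from the share of other protein-coding genes. Within 1000 bp 2 of the C/D core genes had a summit and 0 of the H/ACA core genes. The 2 were nop5, with the peak at position −311 described above, and hoip, with a score of 134 at position 743.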

How the data were processed

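Peak lists on dm6 came from 2 replicates of 1 group. Per the submitters' file notes, the authors called candidates per replicate against a control and on pooled replicates, then applied an IDR threshold. Chromatin was sonicated to 200 to 800 bp, per the labels. For aligner, caller and threshold, the sources used here give no name or value. Each peak's deposited signal score was compared only within a list, and the deposited −log10 q-value was not tested. Lists on dm3 were not used.

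Summits (start plus offset) were measured to the nearest start site or gene body in Ensembl release 115 (BDGP6.54), with sequence from RefSeq Release 6. Python 3.11.15, numpy 2.4.6 and pandas 2.3.3 were used, and distances and the host rule were tested on simulated data. Enclosing same-strand genes with the snoRNA gene in an intron were preferred as hosts, then shorter ones. Shares have 95% Wilson intervals. With 1 group no test between samples exists, and none was run over genes. Alternatives changed list, distance, start sites, host rule and counting unit.

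Named were the 15 units of highest score, units with at least 4 guests, non-coding hosts and clusters with a summit, snoRNA genes and list genes with a summit within 250 bp, and the 3 units nearest each limit. Others are marked as chosen later or serve as members of a set. Members and lists were chosen with earlier results of these data known.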

Additional observations from a re-analysis of the deposited data

How the results depend on the processing

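Of 37 alternative values, 25 stayed within the intervals of the reported ones, 12 moved and 0 reversed. All but those of the summit position are shares, which have no sign and could not reverse. With all pooled candidates, the share of snoRNA genes with a summit was 22.3% within 250 bp and 59.9% within 1000 bp, and that of host units was 55.0% and 75.2%. Other annotated genes stood at 46.3% and 59.7% there, and starts of other protein-coding genes at 25.1% and 48.7%. With the 1471 reproducible peaks of highest score, the share of snoRNA genes within 1000 bp was 6.69%, and that of host units was 12.8% within 250 bp and 23.9% within 1000 bp. With peak intervals in place of summits, snoRNA genes stood at 3.35% and 18.6%. For the 1471 peaks and for peak intervals no share of other genes was computed, so whether the contrast with them changed is unknown. With a limit of 100 bp, host units stood at 11.9%, against 2.58% of other protein-coding genes. Without ribosomal protein hosts, an alternative chosen after seeing the data, host units stood at 17.3% within 250 bp and 30.9% within 1000 bp. Protein-coding genes that are neither hosts nor ribosomal stood at 8.78% and 13.9%.

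Using the best 2942 peaks of either replicate alone gave 0.372 to 1.12% of snoRNA genes within 250 bp and 10.4 to 11.2% within 1000 bp. Other annotated genes stood at 11.9 to 12.6% and 15.9 to 16.4%. Host units ranged from 26.6 to 31.2% and from 38.5 to 42.2%, against 8.24 to 9.25% and 13.6 to 14.3% of other protein-coding genes. The median summit position ranged from −118.5 to −110, and the list of particle and nucleolus genes from 13.2 to 18.4% within 250 bp. No paired analysis was possible because there is 1 group. Depth is unknown, scores cannot be compared between lists, and a unit without a reproducible peak is not shown to be unbound.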
